A study of Mus musculus with 20 samples.

Results

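The transcripts of T cells, natural killer (NK) cells, B cells and plasma cells were examined in the heart apex of 20 mice by bulk RNA sequencing. The set held 43 genes chosen by symbol, which matched 45 of the 25308 gene entries in the count table because Cd28 and Ctla4 were each listed under a pair of identifiers. AL mice (n = 9, AL1 to AL9) were λS-DH mice, labelled DH-lambdaS, whose hearts held amyloid deposits after an intravenous injection of recombinant λS-VL, the variable domain of the λS light chain, as fibril seeds or as soluble protein. LS mice (n = 4, LS1 to LS4) carried the same alleles but were not induced and had no deposits. Control mice (n = 7, Ctrl1 to Ctrl7) were age-matched DH mice without the human light chain. In λS-DH mice the complete human λS light chain cDNA, driven by a mouse VH promoter, stood in place of the mouse Jκ segments at the Igκ locus. All 3 groups shared the DH-LMP2A background, in which B cells develop and plasma cells are increased but immunoglobulin heavy chains are not made. Mice of both sexes were used, and the age of each single mouse was not given in the sources used here. The first sequencing run held AL1 to AL7, all LS mice and Ctrl1 to Ctrl4, and the second held AL8, AL9 and Ctrl5 to Ctrl7.

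T cells recognise antigen through a receptor of alpha and beta chains that signals through the CD3 proteins, with CD4 or CD8 as the co-receptor of helper or killer cells. NK cells and killer T cells share granzymes and perforin, the proteins with which they kill target cells. B cells signal through CD79A and CD79B beside their surface immunoglobulin, and plasma cells, their descendants, secrete antibody chains. Lymphocytes are a minor population of the healthy heart, where muscle cells, fibroblasts, endothelial cells and macrophages supply most of the RNA.

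The 2 genes of the T cell receptor beta constant region share a nearly identical first exon, so a read within it tells the genes apart only where it covers the differing base. The first exons of Trbc1 (chromosome 6, 41538218 to 41538592 on GRCm38, plus strand) and Trbc2 (chromosome 6, 41546730 to 41547104, plus strand) each ran over 375 bases and differed at 1 base, and their longest identical run was 259 bases. Over the whole transcripts, aligned over 738 columns, identity was 81.7%, so reads beyond the first exon can separate them. The 80 coding bases around that position are printed to show how little tells a read of one gene from a read of the other, with the base that differs in capitals.
Trbc1, chr6:41538438-41538517: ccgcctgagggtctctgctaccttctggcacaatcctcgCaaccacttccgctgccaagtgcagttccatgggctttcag
Trbc2, chr6:41546950-41547029: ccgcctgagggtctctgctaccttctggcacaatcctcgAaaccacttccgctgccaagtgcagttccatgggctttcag
The sum of both genes is therefore given in place of separate values.

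Lymphocyte transcripts were scarce in every heart. The 45 entries together took between 0.00214% and 0.00529% of the counts of a library. Library totals were between 43993277 and 62668146 counts in the 15 mice of the first run, and between 7867642 and 11794615 in the 5 mice of the second. Against a detection floor of 3 counts, which stood at 0.0474 to 0.0748 CPM (counts scaled to a common library size with TMM factors) in the first run and at 0.231 to 0.356 CPM in the second, 27 to 41 entries were above the floor in a first-run mouse and 12 to 23 in a second-run mouse. Only 20 of the 45 entries were above the floor in every first-run mouse, 21 had a first-run median of at most 10 counts, and 3 reached a median of 100 counts: Cd28 with 421, Sdc1 with 254 and Ighm with 243, counts not divided by transcript length. A value of 0 in a second-run mouse was thus a weaker statement than a value of 0 in the first run, and these floors cover counting error only. The tissue label itself held, since 6 cardiomyocyte genes summed to between 39728 and 67675 CPM in each library. In bulk tissue, fewer cells of a type and less RNA per cell cannot be told apart.

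The groups were compared to ask whether lymphocyte genes differed with amyloid deposits (AL against Ctrl and AL against LS) or with the circulating light chain alone (LS against Ctrl). Of the 45 entries, 36 had enough counts to be tested, and a gene counted as called when its FDR lay under 0.05 (the Benjamini-Hochberg adjusted p of edgeR's quasi-likelihood test over all 14477 genes tested, with the sequencing run in the model) and an absolute log2 fold change (log2FC) of at least 0.58. In AL against Ctrl, 2 entries were called higher in AL (5.56% of those tested, where 4.1% of all genes were called higher), which were Trac and the Ctla4 entry ENSMUSG00000103326. In the same comparison 3 entries were called lower (8.33%, against 3.71% of all genes), which were Igkc, Jchain and the other Ctla4 entry, ENSMUSG00000026011. Igkc passed the count filter through Ctrl mice alone, the group where it was high, so its place in that share is no independent support. In AL against LS, 2 entries were called higher (5.56%, against 5.86% of all genes), Cd22 and Ctla4 ENSMUSG00000103326, and 1 was called lower (2.78%, against 3.03% of all genes), Ctla4 ENSMUSG00000026011. In LS against Ctrl, 0 entries were called in either direction, where 0.00691% of all genes were called higher and 0.0138% lower. 4 members had an unadjusted p under 0.05 in this last comparison, all lower in LS, and DESeq2 called 1, Igkc. The calls in AL against LS made up about the same share as among all genes in each direction. The count in AL against LS also moved with single mice: from 3 it became 7 without AL1 or AL8, 1 without AL4, AL5, AL7, LS3 or LS4, and 0 without LS2. The shares of all genes called without these mice are not given here, so these moves are not read as particular to the members.

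The tested entries had a median log2FC of 0.13 in AL against Ctrl (20 positive, 16 negative), 0.69 in AL against LS (31 positive, 5 negative) and -0.55 in LS against Ctrl (5 positive, 31 negative). The median over all genes tested was 0.01 in AL against Ctrl and in AL against LS. It was 0.0003 in LS against Ctrl. These comparisons share mice: the LS mice enter the last pair of medians and the AL mice the first pair, so the medians are not independent of each other. Other cell types shifted too. In AL against LS and in LS against Ctrl the medians were 0.69 and -0.85 for 5 erythroid genes and 1.22 and -1.18 for 6 neutrophil genes. They were 0.66 and -0.28 for 6 pan-leukocyte genes, 0.38 and 0.02 for 10 macrophage genes, and -0.18 and 0.12 for 6 cardiomyocyte genes. The shifts were thus not particular to lymphocyte genes.

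**Figure D1:**
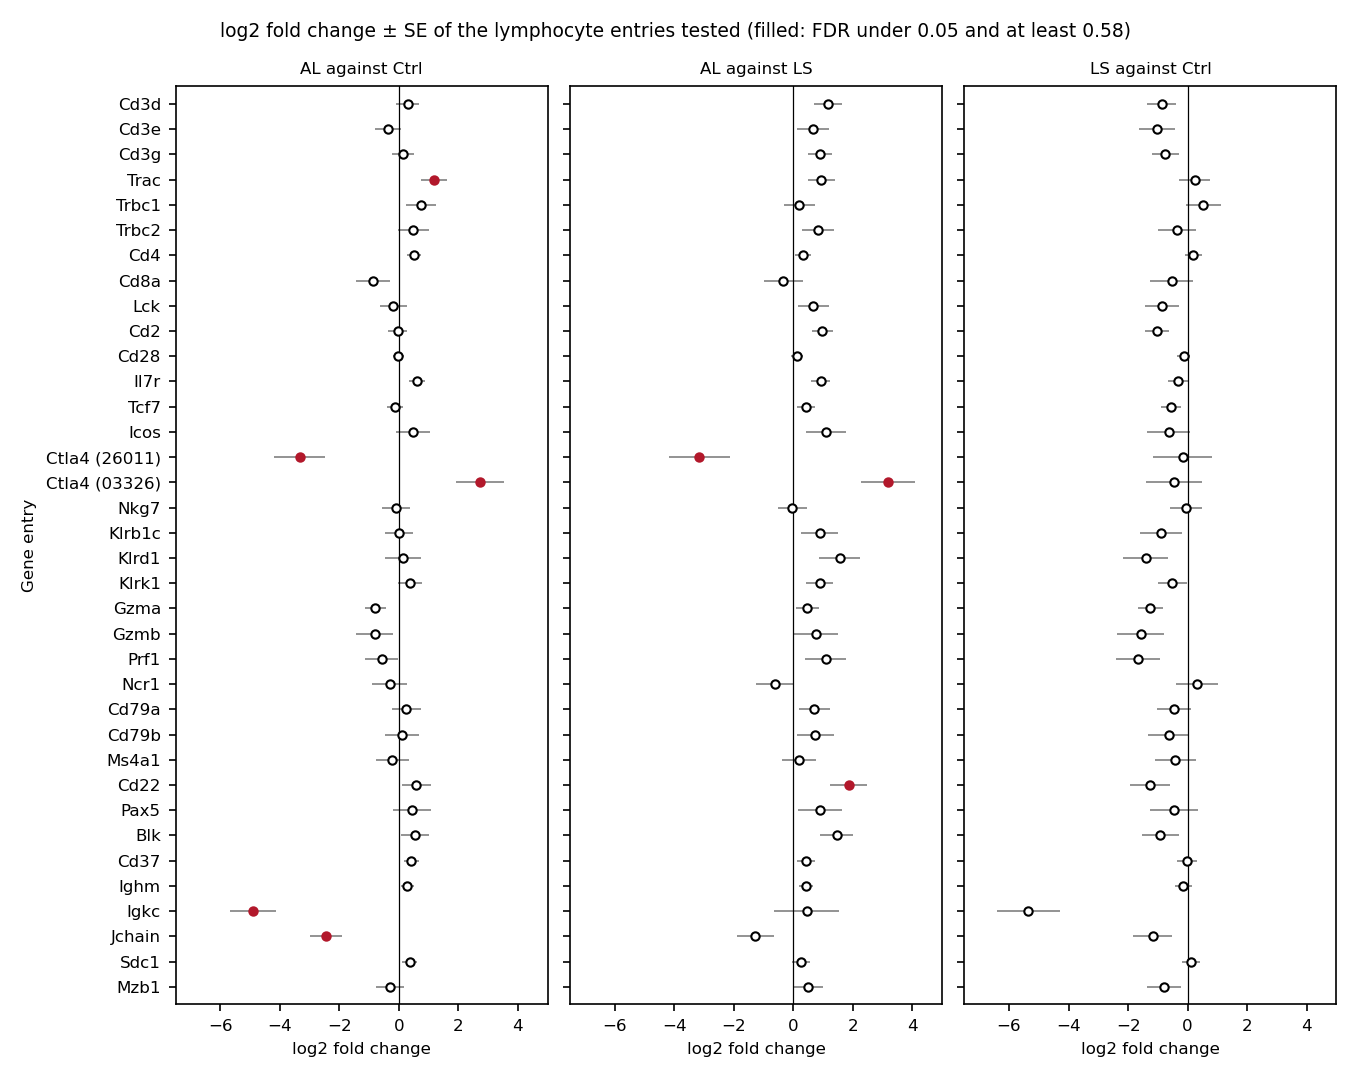
Each point is the log2 fold change of 1 lymphocyte entry in 1 comparison, on the horizontal axis, with its standard error as a bar; filled points were called, and the digits after Ctla4 end its identifier. Most entries lie near 0 in AL against Ctrl and to the right of 0 in AL against LS, and Igkc lies far to the left in both comparisons with Ctrl.

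Among the T cell receptor genes, only the alpha constant gene Trac (ENSMUSG00000076928, chromosome 14, 54220521 to 54224206 on GRCm38, plus strand) was called. First-run AL hearts held 10 to 36 counts of Trac with a median of 18. The first-run controls held 8, 13, 3 and 3 counts, and the LS hearts 12, 9, 11 and 2. The ranges of AL and Ctrl overlapped at the low end of AL, and in the second run all 5 mice had between 1 and 4 counts. On the CPM scale Trac stood at 0.351 ± 0.121 (SD, n = 9) in AL and 0.174 ± 0.106 (n = 7) in Ctrl, a log2FC of 1.18 with an SE of 0.425 and an FDR of 0.0463. The call lay close to the threshold. It was lost in 18 of 32 alternatives, among them leaving out AL1, AL3, AL5, AL6, AL7, AL9, LS1, LS2, LS3, Ctrl1, Ctrl3, Ctrl4 or Ctrl7, with FDR values between 0.0507 and 0.121. Without the 5 mice richest in the liver transcript Alb, the log2FC of Trac was 0.54 with an FDR of 0.559.

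The other chains of the receptor complex were not called. Cd3e, which encodes the CD3 epsilon chain, had 0.126 to 0.775 CPM in AL with a median of 0.266, and 0.247 to 1.77 CPM in Ctrl with a median of 0.461. The LS mice held 0.142, 0.379, 0.143 and 0.0578 CPM of Cd3e, and all 3 groups overlapped. Trbc1 and Trbc2 summed to 0.205 to 1.11 CPM in AL (median 0.35), 0.173 to 0.652 in LS and 0.154 to 0.498 in Ctrl (median 0.349). The 6 genes of the receptor complex (Cd3d, Cd3e, Cd3g, Trac, Trbc1 and Trbc2) summed to 2.11 ± 0.9 CPM (mean ± SD) in the 9 AL mice, 1.26 ± 0.645 in the 4 LS mice and 1.82 ± 0.626 in the 7 Ctrl mice. The highest sums of any heart were those of AL3 with 3.58 and AL4 with 3.2 CPM, while the other AL hearts ran from 0.948 to 2.73 CPM, and LS4 was the lowest of all with 0.482.

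The co-receptors were present in most hearts without a call. Cd4 stood at 0.73 to 1.64 CPM in AL (median 1.15), 0.231 to 1.08 in Ctrl (median 0.848), and 1.11, 0.862, 0.672 and 0.925 CPM in the LS mice. Cd8a ran from 0 to 0.49 CPM in AL (median 0.205) and from 0.0748 to 0.628 in Ctrl (median 0.456), and the LS mice held 0.142, 0.568, 0.183 and 0.154 CPM. The Cd8a counts of first-run controls were 22, 33, 3 and 15, so the spread within Ctrl was as wide as that between groups. Cd8b1, the CD8 beta chain, was above the floor in 8 of 20 mice with at most 17 counts, and was not tested.

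Cd28, which encodes the receptor of T cells for the B7 co-stimulatory ligands, had similar means in the groups and was not called. Its entry ENSMUSG00000026012 stood at 8.2 ± 2.63 CPM (mean ± SD) in the 9 AL mice, 8.19 ± 0.674 in the 4 LS mice and 7.45 ± 2.26 in the 7 Ctrl mice. Within the first run it ran from 371 to 632 counts in AL and from 282 to 561 in Ctrl, and the LS mice held 322, 421, 426 and 395. Its other entry, ENSMUSG00000102412, was above the floor in 1 mouse. The first-run median of Cd28 was 421 counts, against 12 for Cd3d, 12 for Cd3e, 25 for Cd3g and 12 for Trac, none divided by transcript length. Which cells made the Cd28 transcripts was not tested. The signalling kinase Lck and the adhesion receptor Cd2 were not called, with at most 56 and 36 counts, and Cd5, a negative regulator of receptor signalling, had at most 9 counts and was not tested.

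Of the genes of T cell survival and fate, Ctla4 alone was called by edgeR. Il7r, the receptor chain for the survival factor IL-7, ran from 0.941 to 2.84 CPM in AL with a median of 1.97, against 1.23, 1.11, 1.02 and 0.501 CPM in the LS mice. Its log2FC in AL against LS was 0.92 with an SE of 0.335 and an FDR of 0.0533, just outside the threshold. DESeq2 called it at an FDR of 0.0251. The transcription factor Tcf7 and the co-stimulatory receptor Icos were not called. Foxp3, which defines regulatory T cells, was above the floor in 1 of 20 mice, AL3, with 7 counts, and Lef1 in 7 mice with at most 13 counts; neither was tested.

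Ctla4, an inhibitory receptor that competes with CD28 for its ligands, was called in opposite directions under its 2 identifiers. The entry ENSMUSG00000026011 lies on chromosome 1 at 60887000 to 60915832 of GRCm38 on the plus strand, between Cd28 (60716800 to 60773359) and Icos (60977927 to 61000320). The entry ENSMUSG00000103326 has no coordinates in the annotation used here, and how reads were divided between the entries was not resolved, so the opposite folds cannot be read as opposite changes of Ctla4 transcripts. AL1 to AL7 held 27 to 190 counts of ENSMUSG00000103326 and 0 to 7 counts of ENSMUSG00000026011. AL8 and AL9, from the second run, held 0 and 9 counts of the former and 22 and 6 of the latter. The LS mice had 0, 1, 20 and 21 counts of ENSMUSG00000103326 and 16, 23, 26 and 34 of ENSMUSG00000026011, and the first-run controls had 31, 23, 8 and 0 of the former and 0, 79, 43 and 45 of the latter. The second-run controls had 0 counts of ENSMUSG00000103326 and 29, 28 and 15 of ENSMUSG00000026011.

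The share of a mouse's Ctla4 counts that fell to ENSMUSG00000103326 was between 96.4% (95% exact binomial interval 92.8% to 98.6%) and 100% in AL1 to AL7. The interval treats the estimated counts as reads seen in 1 entry, so it covers neither the division of reads between the entries nor differences between mice. This share was 0% in AL8 and 100% in Ctrl1, so the split did not follow the groups without exception. The fitted log2FC of ENSMUSG00000103326 was 2.72 (SE 0.803, FDR 0.0183) in AL against Ctrl and 3.18 (SE 0.915, FDR 0.018) in AL against LS. For ENSMUSG00000026011 the values were -3.33 (SE 0.86, FDR 0.00868) and -3.16 (SE 1.02, FDR 0.0322). With both entries summed, an alternative added after seeing the data, Ctla4 had a log2FC of 0.41 (SE 0.392, FDR 0.458) in AL against Ctrl and 1.29 (SE 0.467, FDR 0.0487) in AL against LS. The summed level was 1.9 ± 0.961 CPM (mean ± SD) in the 9 AL mice, 0.72 ± 0.329 in the 4 LS mice and 1.65 ± 0.892 in the 7 Ctrl mice, so that AL and Ctrl overlapped over nearly their whole ranges. Against LS, the call of ENSMUSG00000103326 was lost without LS2 (FDR 0.0562). That of ENSMUSG00000026011 was lost without any 1 of AL3, AL4, AL5, AL6, AL7, LS2, LS3 or LS4, with FDR values from 0.051 to 0.0716.

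**Figure D2:**
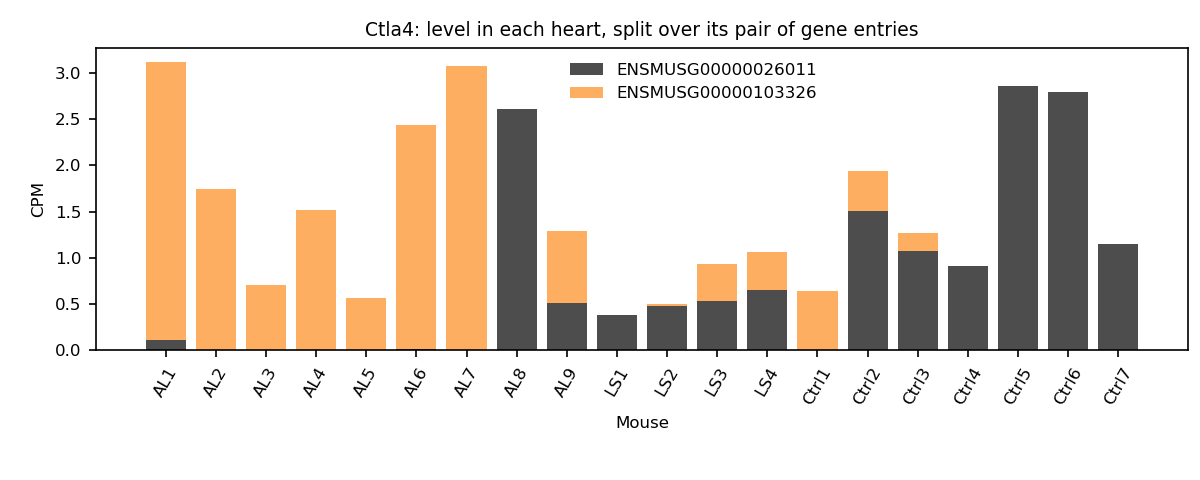
Stacked bars give the CPM of Ctla4 in each mouse on the vertical axis, split into its entries ENSMUSG00000026011 (dark) and ENSMUSG00000103326 (light). AL1 to AL7 are nearly all light, Ctrl5 to Ctrl7 and AL8 are all dark, and the summed heights of AL and Ctrl mice overlap.

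The NK and cytotoxic genes gave 0 calls in each comparison with all mice by edgeR and by DESeq2, while edgeR on the first run alone called Klrk1 higher in AL against LS (log2FC 0.95, FDR 0.0489). At an unadjusted p under 0.05 stood 1 gene in AL against Ctrl (Gzma, lower), 1 in AL against LS (Klrd1, higher) and 2 in LS against Ctrl (Gzma and Prf1, lower). Of the 11 genes, 8 were tested, with a median log2FC of -0.20 in AL against Ctrl, 0.83 in AL against LS and -1.07 in LS against Ctrl. Ncr1, which encodes the activating receptor NKp46, ran from 0 to 0.344 CPM in AL (median 0.187) and from 0 to 0.398 in Ctrl (median 0.145), and stood at 0.142, 0.231, 0.428 and 0.0578 CPM in the LS mice. Nkg7, a cytotoxic granule protein, ran from 0 to 0.416 CPM in AL (median 0.205) and from 0.0769 to 0.398 in Ctrl (median 0.163), and the LS mice held 0.213, 0.4, 0.285 and 0.0963. All 3 groups overlapped for both genes.

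Granzyme A, a protease of cytotoxic granules, overlapped between groups. First-run counts of Gzma were 13 to 35 in AL (median 20), 8, 23, 15 and 7 in LS, and 34, 40, 30 and 13 in Ctrl, and no second-run mouse was above the floor. Klrk1, the receptor NKG2D, stood at 0.681 ± 0.337 CPM (mean ± SD) in the 9 AL mice, 0.415 ± 0.176 in the 4 LS mice and 0.45 ± 0.244 in the 7 Ctrl mice. Ifng, the cytokine interferon gamma, was above the floor in 2 of 20 mice with at most 4 counts. The transcription factors Eomes and Tbx21 were above it in 4 and 12 mice with at most 12 and 14 counts, and none of these 3 genes was tested.

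The B cell genes were all tested, and 1 of 7 was called. Cd22, an inhibitory co-receptor of the B cell receptor (ENSMUSG00000030577, chromosome 7, 30865402 to 30880342 on GRCm38, minus strand), had 2, 4, 5 and 5 counts in the LS mice. The first-run AL mice held 5 to 29 counts with a median of 16, and the first-run controls 10, 10, 0 and 17. The LS mice therefore lay at or under the lowest first-run AL heart, while Ctrl reached both lower and higher. The level was 0.361 ± 0.201 CPM (mean ± SD) in the 9 AL mice, 0.0824 ± 0.0246 in the 4 LS mice and 0.293 ± 0.192 in the 7 Ctrl mice, with a log2FC of 1.86 (SE 0.617, FDR 0.0353) in AL against LS. The call was lost without any 1 of AL4, AL5, AL7, LS1, LS2, LS3 or LS4, with FDR values from 0.0539 to 0.0999.

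The defining genes of B cells overlapped between groups. Cd79a ran from 0 to 0.73 CPM in AL (median 0.304) and from 0.0984 to 0.477 in Ctrl (median 0.228), and the LS mice held 0.0945, 0.316, 0.387 and 0.193. Ms4a1, which encodes CD20, ran from 0 to 0.919 CPM in AL (median 0.287) and from 0.187 to 1.28 in Ctrl (median 0.449), against 0.402, 0.295, 0.326 and 0.347 in LS. Cd79b, Pax5, Blk and Cd37, the last a tetraspanin of mature B cells, were not called. The 7 genes summed to 4.04 ± 1.81 CPM (mean ± SD) in the 9 AL mice, 2.59 ± 0.412 in the 4 LS mice and 3.31 ± 0.748 in the 7 Ctrl mice. The highest sums were those of AL7 with 6.75, AL5 with 6.09 and AL2 with 5.99 CPM. In AL7, 170 of the 305 summed counts were those of Cd37 alone, so its sum rests mostly on that gene. AL7, AL5 and AL2 were not the hearts with the highest T cell receptor sums, which for the same mice stood at 1.95, 1.72 and 1.6 CPM.

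**Figure D3:**
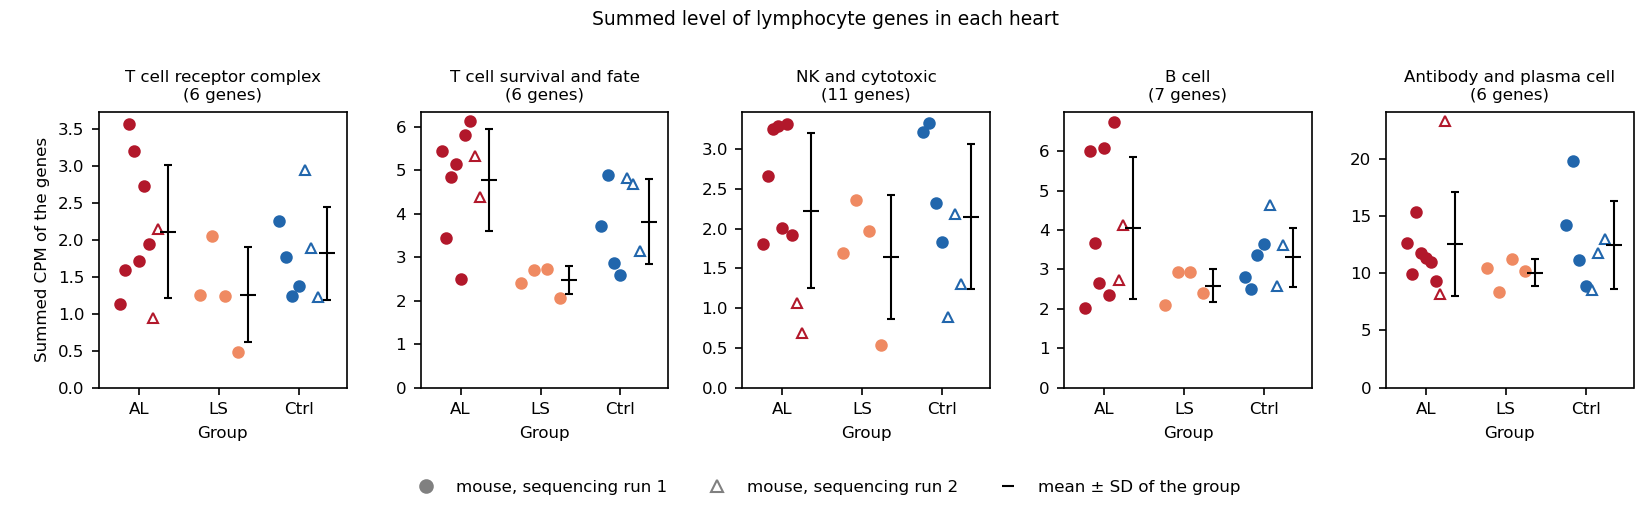
Each symbol is the summed CPM of a gene group in 1 heart (vertical axis, from 0) by mouse group (horizontal axis); filled circles are first-run mice, open triangles second-run mice, and the bar is the mean ± SD. AL and LS overlap in every panel, least for T cell survival and fate, where LS lies at 2.06 to 2.73 CPM and AL at 2.49 to 6.13. The antibody and plasma cell panel mostly shows Sdc1 and Ighm, with AL means of 6.43 and 5.41 in a summed 12.5 CPM. Igkc and Jchain had AL means of 0.0421 and 0.284 CPM and are hardly visible in it. Its top point, AL9 at 23.3 CPM, holds 17 CPM of Sdc1.

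Igkc transcripts were near or under the floor in mice carrying the λS allele. Igkc, the mouse kappa light chain constant gene (ENSMUSG00000076609, chromosome 6, 70726435 to 70726966 on GRCm38, plus strand), is joined to the Jκ segments in kappa transcripts, and those segments were replaced in AL and LS mice but not in Ctrl. AL1 to AL7 held 0 to 6 counts with a median of 2, AL8 and AL9 held 0, and the LS mice held 4, 2, 1 and 0. The first-run controls held 8, 274, 22 and 30 counts and the second-run controls 0, 6 and 5. No AL or LS heart reached the 8 counts of the lowest first-run control. Igkc passed the count filter through Ctrl mice alone, so its tests against Ctrl are not independent of the group where it was high. In AL against Ctrl the log2FC was -4.90 with an SE of 0.781 and an FDR of 0.000368. In LS against Ctrl it was -5.35 with an SE of 1.07, an unadjusted p of 7.3e-05 and an FDR of 0.265, and DESeq2 gave an FDR of 0.00272. Ctrl2 decided much of the size: without it the log2FC in AL against Ctrl was -3.14 with an FDR of 0.00292. The allele and the amyloid deposits cannot be told apart in AL against Ctrl. In AL against LS, where both groups carried the allele, the log2FC of Igkc was 0.45 (SE 1.1, FDR 0.805). The means there were 0.0421 CPM in AL and 0.0392 CPM in LS, from counts near or under the floor.

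Jchain, which encodes the chain that joins secreted IgM and IgA into polymers (ENSMUSG00000067149, chromosome 5, 88519809 to 88527891 on GRCm38, minus strand), was lower in AL than in Ctrl. AL1 to AL7 held 6 to 20 counts with a median of 13. The LS mice held 42, 8, 19 and 68, and the first-run controls 158, 169, 33 and 32. In the second run AL8 and AL9 had 5 and 3 counts and Ctrl5 to Ctrl7 had 2, 9 and 3. In the first run every control lay above every AL heart, LS mice fell on both sides, and in the second run the groups overlapped. The log2FC in AL against Ctrl was -2.44 (SE 0.544, FDR 0.0034), and over 32 alternatives it stayed between -3.01 and -2.07 and was called in each. In AL against LS it was -1.27 (SE 0.615, FDR 0.14), and with the first run alone it was -1.53 with an FDR of 0.0452.

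Transcripts of other tissues differed between the same mice. The 8 liver genes examined summed to 37.6 to 289 CPM in the first-run controls, 5.89 to 166 in LS and 1.13 to 34.1 in first-run AL mice, and all 8 were called lower in AL against Ctrl. Second-run controls summed to 0.398 to 1.23 CPM. Ctrl2, with the most Igkc, also had the highest sum of 5 erythroid genes, 20402 CPM, against 894 to 12079 in the other mice. Without the 5 mice of highest Alb (LS1, LS3, Ctrl1, Ctrl3 and Ctrl4) the log2FC was -6.53 (FDR 0.000628) for Igkc and -2.45 (FDR 0.0389) for Jchain in AL against Ctrl. That left Ctrl2 as the only first-run control, so these values rest on it: without Ctrl2 alone the log2FC was -3.14 (FDR 0.00292) for Igkc and -2.09 (FDR 0.0106) for Jchain. Leaving out the 5 mice of highest Alb also left LS2 and LS4 as the only LS mice. In AL against LS, edgeR then called 0 members, with 6 of 38 tested entries at an unadjusted p under 0.05. The shares of all genes in that setting are not given here, so the loss of calls is not read as particular to the members.

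The remaining antibody and plasma cell genes were not called. Ighm, the constant region of the IgM heavy chain, ran from 3.56 to 7.77 CPM in AL (median 5.19), from 1.89 to 7.15 in Ctrl (median 4.81), and stood at 3.19, 3.95, 4.99 and 3.58 in the LS mice. Mzb1, a chaperone of antibody assembly, ran from 0 to 0.691 CPM in AL (median 0.427) and from 0.197 to 0.797 in Ctrl (median 0.332), with 0.189, 0.231, 0.387 and 0.27 in LS. Sdc1, which encodes the plasma cell surface marker CD138 and is also made by epithelial and other cells, ran from 4.03 to 17 CPM in AL (median 4.85) and from 3.29 to 5.99 in Ctrl. AL9 alone reached 17 CPM, and the next highest AL heart held 6.96. Tnfrsf17, the plasma cell survival receptor BCMA, was above the floor in 5 mice with at most 7 counts and was not tested.

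**Figure D4:**
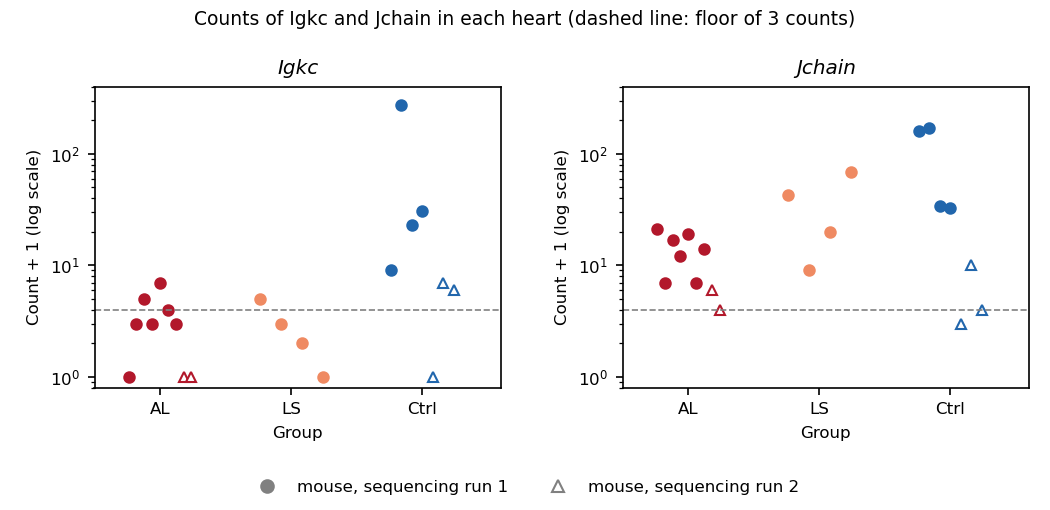
Points give the count plus 1 of Igkc and Jchain in each heart on a log scale, by group, with filled circles for the first run, open triangles for the second and a dashed line at the floor of 3 counts. First-run controls lie above all AL hearts for both genes, and LS hearts are low for Igkc but spread for Jchain.

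Longer lists of lymphocyte genes were read against the shares of all genes called, which were 4.1% higher and 3.71% lower in AL against Ctrl and 5.86% higher and 3.03% lower in AL against LS. Of 16 tested other T cell genes, 1 was called lower in AL against Ctrl, the receptor Cd6 (log2FC -1.79, FDR 0.0171), and 1 higher in AL against LS, the gamma chain constant gene Trgc1 (1.68, FDR 0.0231). None of 12 tested other NK and innate lymphocyte genes or of 13 tested other B and plasma cell genes was called in any comparison by edgeR; at an unadjusted p under 0.05 stood 2 of the former in AL against Ctrl, and of the latter 1 in AL against Ctrl and 2 in AL against LS. Among 13 tested lymphocyte-attracting chemokine and adhesion genes, Ccl19 (1.92, FDR 0.0232) and Cxcl16 (0.62, FDR 0.0032) were called higher in AL against Ctrl, and Cxcl13 (2.57, FDR 0.0413) and Icam1 (0.75, FDR 0.00222) in AL against LS. Ccl19 and Cxcl13 are chemokines that guide lymphocytes in lymphoid tissue. LS against Ctrl gave 0 calls in these lists by edgeR, with 0 genes at an unadjusted p under 0.05.

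Genes of leukocytes in general were also read beside the lymphocyte genes. Of 6 pan-leukocyte genes, 4 were called higher in AL against LS, among them Ptprc, which encodes CD45 (log2FC 0.68, FDR 0.00338), and Cd52 (1.08, FDR 0.015); Cd52 was also called in AL against Ctrl (0.72, FDR 0.0488). The 6 genes summed to 51.3 to 71.3 CPM in first-run AL hearts, 39.6 to 45.2 in LS and 45.1 to 59.8 in first-run controls. In the same comparisons 1 of 10 macrophage genes (Lyz2, against Ctrl), 2 of 10 dendritic cell genes (Itgax, against both, and Xcr1, against LS) and 0 of 6 neutrophil genes were called. The part of these cells in the lymphocyte values was not tested.

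The comparisons were repeated within each sequencing run. With the first run alone, 4 of 35 tested members were called in AL against Ctrl (both Ctla4 entries, Jchain and Trac), where 7.82% of all genes were called. Igkc was not tested there because its counts did not pass the filter. In AL against LS, 8 of 35 were called there (6 higher, 2 lower), where 11.5% of all genes were called. The members added to those named above were Blk, Cd2, Cd3d and Klrk1, higher in AL, and Jchain, lower. With the second run alone (AL8 and AL9 against Ctrl5 to Ctrl7), 7 members had enough counts to be tested and 0 were called by edgeR, with 1 (Sdc1) at an unadjusted p under 0.05. The share of all genes called in that run is not given here. A test of whether the AL against Ctrl difference itself depended on the run found 0 of 30 tested members at an FDR under 0.05, where 97 of 13835 genes were. At an unadjusted p under 0.05 stood 5 members, 2 of them called in AL against Ctrl, Jchain and Ctla4 ENSMUSG00000026011. Their log2FC was higher in the second run than in the first, by 2.93 and 4.59. The others were Sdc1 (1.52), Ms4a1 (-3.99) and Mzb1 (-7.39). The second run held no LS mice, so no value within it bears on the comparisons with LS.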

How the data were processed

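RNA of the heart apex was sequenced by the authors as stranded mRNA libraries (paired reads, STAR on GRCm38 and Salmon within nf-core/rnaseq, Ensembl annotation). The deposited table holds Salmon's estimated counts per gene entry, unnormalized; 14.2% of values were not whole and were rounded here. Groups came from the sample titles. Of 25308 entries, 14477 passed filterByExpr (minimum count 10). edgeR 4.0.16 in R 4.3.3 fitted quasi-likelihood models with TMM factors, group and sequencing run; p-values were adjusted by Benjamini-Hochberg, and SE was taken as the log2FC divided by the root of F. The test was checked on simulated counts that gave every gene the same spread and held no run effect. Changed genes were drawn from all genes tested, so that check says little about genes of few counts such as most members. DESeq2 1.42.0 and ComBat-seq (sva 3.50.0) were alternatives. p-values cover the spread between these mice. The members and gene lists were chosen with earlier results of these data known. Values by mouse were given for members called in a comparison and for 12 lineage-defining members, and genes of other lists were named where called; Cd28, Sdc1, Il7r and Klrk1 were added after their values were seen. Coordinates and the Trbc sequences came from GENCODE M21.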

Additional observations from a re-analysis of the deposited data

Results flagged for a closer look

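Within a group of mice, a single value was set apart when its gap to the nearest other mouse was large beside the whole range (Dixon's ratio above its 95% critical value). Of 57 such groups of values from 19 entries, 7 held one. Chance alone gives about 1 in 20 groups only for normal values of equal spread. The AL and Ctrl groups pooled runs of unlike depth, where 1 count stood at 0.0158 CPM in AL1 and at 0.119 CPM in AL8. The 7 values are therefore not read as an excess over chance. Ctrl2 had 5.21 CPM of Igkc, where the next control had 0.61. Ctrl5 had 1.77 CPM of Cd3e and 1.28 CPM of Ms4a1, against 0.598 and 0.529 in the next control, from a library of 10020907 counts. Ctrl7 had 0.231 CPM of Cd4, which was 3 counts, against 0.761 in the next lowest control. LS2 had 0.568 CPM of Cd8a, against 0.183 in the next LS mouse. AL8 had 2.61 CPM of Ctla4 ENSMUSG00000026011, against 0.516 in AL9. AL9 had 17 CPM of Sdc1, against 6.96 in the next AL heart. 5 of these 7 values came from second-run mice.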

How the results depend on the processing

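Few counts limit these results: 21 of 45 entries had a first-run median of at most 10 counts. The members called in AL against Ctrl numbered 5 and became 0 with at least 10 counts required in every mouse (4 tested), 3 without the run term, 0 with the second run alone (7 tested), and, as alternatives chosen after seeing the data, 3 with entries of a symbol summed and 3 without the 5 mice of highest Alb; leaving out 1 mouse at a time gave 4 to 5. In AL against LS the 3 members became 0 with 10 counts in every mouse, 7 with DESeq2, 1 without the run term, 8 with the first run alone, 5 with only the 2 groups compared, 5 with Xist as a covariate and 0 without the 5 mice of highest Alb; leaving out 1 mouse gave 0 to 7. In LS against Ctrl the count of 0 became 1 with DESeq2 and 1 with ComBat-seq, and was 0 to 0 with 1 mouse left out. Where fewer mice or genes entered, the alternative's construction differs. Otherwise the cause was not tested. The shares of all genes called are not set beside these counts, so a change among members cannot be told apart from a change over all genes. Summing entries reversed Ctla4 ENSMUSG00000026011 to 0.41 in AL against Ctrl and 1.29 in AL against LS. With the mouse number as a replicate block, 3 members were called in AL against Ctrl and 1 in AL against LS. The sample titles do not say that same-numbered mice were paired. Of 15 pairs of same-numbered mice, 3 had a correlation over 0.1 (range -0.154 to 0.231). Differently numbered mice were not correlated for reference, so these values cannot decide whether the numbers pair mice. Igkc and Jchain in AL against Ctrl were called in each of the 30 and 32 alternatives that tested them. Most of these left out 1 mouse, so they share nearly all their data and are not independent of each other. Igkc passed the count filter through Ctrl alone and drops out where the filter removed it, as with the first run alone, so its count is no independent support.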
